A study of Mus musculus with 12 samples.

Results

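The 9 genes described here encode 7 serpin protease inhibitors (Serpinb1a, Serpinb2, Serpinb6a, Serpinb6b, Serpinb8, Serpinb9 and Serping1), the protease urokinase (Plau) and the urokinase receptor (Plaur), out of 19057 genes named on the array. They were chosen by symbol, with the difference between nanotube-exposed and control mice already known and with Serpinb6b included because it was strongly induced, so that difference is given for them as a description without a test. All 13 probes annotated to the 9 symbols were taken. RNA was measured on Illumina Mouse WG-6 v2 BeadChips in alveolar macrophages, the phagocytes of the airspaces, lavaged from C57Bl/6 mice on day 60, with a separate animal on each array. The 6 control mice received 35% surfactant in saline by the oropharyngeal route, and 6 mice received 100 µg of multiwalled carbon nanotubes (MWCNT) in that vehicle. The labels state a purity above 90%, and no age, batch or slide is given in the sources used here.

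Serpins inhibit proteases by offering a bait loop. The protease cuts the loop, stays bound to the inhibitor through it and is inactivated. Serpins of the B clade lack a classical secretion signal and act mostly inside the cells that make them, where they guard against proteases leaking from granules or lysosomes, whereas Serping1, the C1 inhibitor, is secreted into plasma and tissue fluid. Urokinase cuts plasminogen to plasmin at the cell surface, where its receptor holds it, and Serpinb2, also called plasminogen activator inhibitor type 2, inhibits it. Macrophages use this system to clear fibrin and to remodel matrix.

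Of the 9 genes only Serpinb6b stood clearly apart between the groups. Its probe was not above background on any of the 6 control arrays and was detected on all 6 MWCNT arrays, at least 2.53-fold higher. Serpinb6a, Serpinb1a, Plau and Plaur were detected on all 12 arrays, and their groups overlapped. Serpinb2, Serpinb8, Serpinb9 and Serping1 gave no signal above background, apart from Serpinb8 on 1 control array. A probe counts as detected where its detection p-value, the array's own comparison with its negative-control beads, is under 0.05.

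Serpinb6b lies in a run of B clade genes on mouse chromosome 13 that also holds its neighbour Serpinb9 and its close relative Serpinb6a. The promoters of these 3 genes are shown because the genes behaved in 3 different ways: detected with MWCNT only, detected on no array, and detected on every array. The sequences are RefSeq's (build GRCm38.p6), from 250 bases before to 50 bases after a transcript start, and capitals mark every match, on either strand, to 6 motifs that were chosen after the sequences had been seen. The motifs were TGACTCA (AP-1), TATAAA (the TATA box), GAGGAA (an ETS core), GGGAC followed by TTTCC (NF-kB), TTCNNNGAA (STAT), and GAAA at both ends of a run with any 2 bases between (interferon response).
Serpinb6b, chr13:32965011-32965310, plus strand: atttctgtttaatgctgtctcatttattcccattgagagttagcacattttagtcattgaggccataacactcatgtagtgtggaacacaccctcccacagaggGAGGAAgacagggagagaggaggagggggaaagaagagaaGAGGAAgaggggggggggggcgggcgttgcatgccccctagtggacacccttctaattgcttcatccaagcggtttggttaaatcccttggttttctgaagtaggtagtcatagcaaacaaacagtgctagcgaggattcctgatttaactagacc
Serpinb9, chr13:33004291-33004590, plus strand: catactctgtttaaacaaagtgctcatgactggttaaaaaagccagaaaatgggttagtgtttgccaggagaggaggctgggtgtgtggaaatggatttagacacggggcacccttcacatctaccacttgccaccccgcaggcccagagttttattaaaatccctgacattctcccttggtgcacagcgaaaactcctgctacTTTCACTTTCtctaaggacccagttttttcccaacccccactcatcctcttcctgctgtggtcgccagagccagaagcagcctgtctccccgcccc
Serpinb6a, chr13:34002745-34003044, minus strand: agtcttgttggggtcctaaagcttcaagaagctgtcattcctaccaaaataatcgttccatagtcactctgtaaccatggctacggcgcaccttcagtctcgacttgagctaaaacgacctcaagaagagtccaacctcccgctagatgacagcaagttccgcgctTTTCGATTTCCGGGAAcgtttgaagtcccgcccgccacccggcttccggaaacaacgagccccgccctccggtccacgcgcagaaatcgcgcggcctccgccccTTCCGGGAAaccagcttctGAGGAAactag
The Serpinb6b window held GAGGAA at 2 places and none of the other 5 motifs. GAGGAA occurs in 28.3% of the 32851 promoter windows of the same length. The Serpinb9 window held 1 match to the interferon response motif, which 3.44% of all windows hold. The Serpinb6a window held 2 matches to the STAT motif (8.30% of windows), 1 to the interferon response motif, which overlaps the first of them, and 1 to GAGGAA. A further window of Serpinb6a, at a start lying inside the gene, held none of the 6. Of the 9 genes, 6 had a promoter sequence in the table used. The Plaur window held 1 AP-1 match (5.20% of windows) and 2 matches to GAGGAA, the Serpinb8 window held 2 AP-1 matches, and both windows of Serpinb2 held the TATA box (13.6% of windows) and 1 STAT match.

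Serpinb6b (probe ILMN_2611755) is one of several mouse relatives of Serpinb6a. Its scanner signal ranged from 138.7 to 158 on the control arrays (median 142.7) and from 201 to 326.4 on the MWCNT arrays (median 276.55), in linear intensity units without background removal. The lowest MWCNT signal lay above the highest control signal. The control signals were 0.961 to 1.03 times the median signal of their own array, and the MWCNT signals 1.32 to 1.78 times, so the groups stayed apart relative to the array medians, which were themselves higher with MWCNT (140.4 to 160 in controls and 152.5 to 183.4). Detection p-values were 0.124 to 0.288 on the control arrays and at most 0.00214 with MWCNT.

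After background correction and quantile normalization, the Serpinb6b level on the log2 scale ranged from 4.81 to 5.11 in controls (median 4.94) and from 6.32 to 7.11 with MWCNT (median 6.98). MWCNT arrays 1 and 5 were the lower ones, at 6.32 and 6.33, and the other 4 lay between 6.94 and 7.11. The fitted log2 difference was 1.86 ± 0.15 (SE, n = 6 per group), from 4.95 ± 0.11 to 6.80 ± 0.37 (SD). Since no control array detected the probe, this fitted value depends on how background is treated, and the bound of at least 2.53-fold is set against the lowest signal counted as detected on each control array. The difference was 0.64 ± 0.07 without background correction, 1.04 ± 0.10 with a background model that ignores the negative controls (normexp), and 0.35 ± 0.04 in the authors' processed values, which carry an offset.

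**Figure D1:**
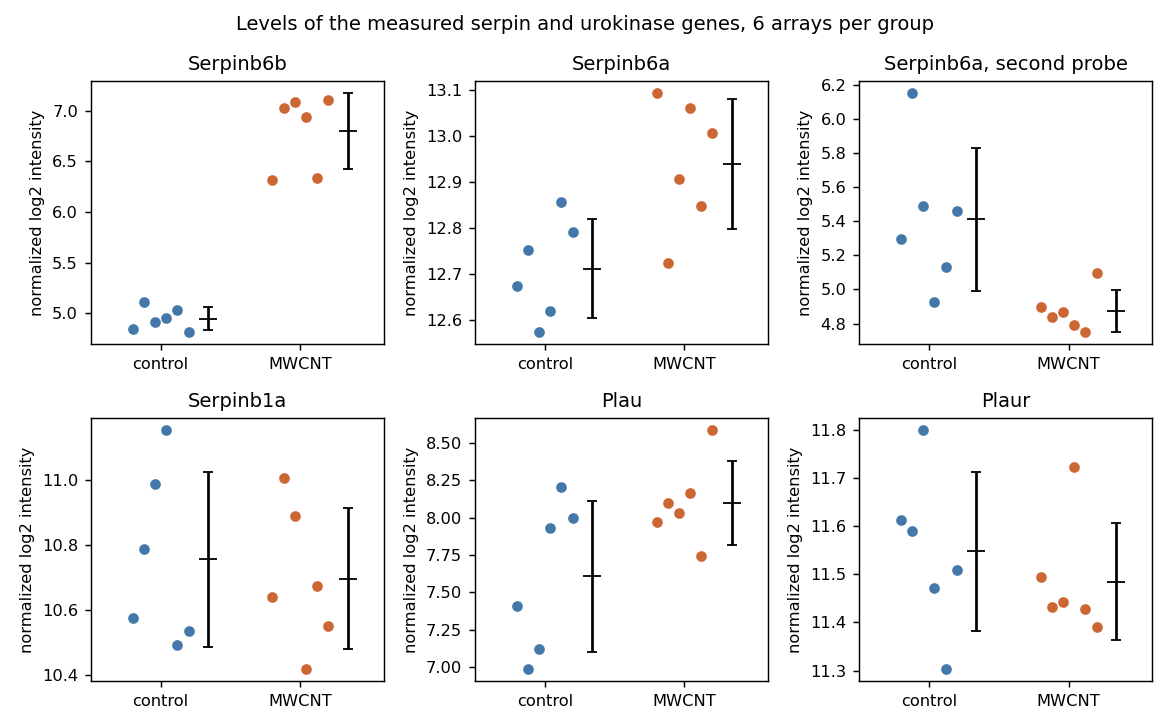
Normalized log2 intensity (vertical axes, a separate scale in each panel) of the 6 member probes that passed the detection filter, with 1 point per array, 6 control arrays in blue and 6 MWCNT arrays in orange. Black bars show mean ± SD. Serpinb6b is the panel in which the groups lie apart, from 4.81 to 5.11 in controls and from 6.32 to 7.11 with MWCNT, and the other 5 overlap.

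Serpinb6a is the mouse counterpart of human SERPINB6, which inhibits cathepsin G. Its main probe (ILMN_1250279) had levels from 12.57 to 12.86 in controls (median 12.71) and from 12.72 to 13.09 with MWCNT (median 12.96). The 2 ranges overlapped through MWCNT arrays 2 and 5, and the difference was 0.23 ± 0.08 (95% interval 0.06 to 0.40). A second, dimmer probe of Serpinb6a ran the other way: it was detected on 3 control arrays and no MWCNT array, with levels from 4.93 to 6.15 in controls and from 4.75 to 5.10 with MWCNT, a difference of -0.54 ± 0.16. Its highest control value, 6.15, was on array 2. The other 2 probes of Serpinb6a were detected on no array. The mean of the main and second probes differed by -0.15 ± 0.10, a sign that came from the second probe. The second probe passed the detection filter only through control arrays, so nothing further is read from its difference or from that mean. With arrays scaled to the median of the detected probes in place of quantiles, the main probe differed by 0.07 ± 0.08.

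Serpinb1a is the mouse counterpart of the leukocyte elastase inhibitor, which blocks neutrophil elastase, cathepsin G and proteinase 3. Its levels ranged from 10.49 to 11.16 in controls (median 10.68) and from 10.42 to 11.01 with MWCNT (median 10.66). The groups overlapped almost fully, and the difference was -0.06 ± 0.13 (95% interval -0.34 to 0.23). The sign was positive, at 0.04, when arrays were scaled to a common median, and the value was 0.02 without control array 4.

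Plau, which encodes urokinase, had levels from 6.99 to 8.20 in controls (median 7.67) and from 7.74 to 8.59 with MWCNT (median 8.07). The control arrays fell into a lower set, arrays 1 to 3 at 7.41 or less, and an upper set, arrays 4 to 6 at 7.93 or more, while the 6 MWCNT arrays all lay above the lower set and overlapped the upper one. The difference was 0.49 ± 0.21 (95% interval 0.04 to 0.94), and it was 0.71 ± 0.19 with median scaling, 0.30 ± 0.13 without background correction and 0.21 ± 0.09 in the authors' processed values. The SD was 0.51 among controls and 0.28 with MWCNT.

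Plaur, the membrane-anchored urokinase receptor, had levels from 11.30 to 11.80 in controls (median 11.55) and from 11.39 to 11.72 with MWCNT (median 11.44). The groups overlapped, with 5 of 6 MWCNT arrays between 11.39 and 11.49 and array 4 at 11.72. The difference was -0.06 ± 0.09 (95% interval -0.25 to 0.13), -0.21 ± 0.10 with scaling to the detected probes in place of quantiles, and -0.0049 with median scaling.

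Serpinb2, the urokinase inhibitor, was detected on none of the 12 arrays, with normalized levels of 4.51 to 4.70 in controls and 4.53 to 4.68 with MWCNT. The lowest of its 12 detection p-values was 0.440. Serpinb9, which in mice inhibits granzyme B, was also detected on no array (lowest detection p-value 0.544), and neither probe of Serping1 was (lowest 0.137 and 0.168). Serpinb8, whose human counterpart inhibits furin, was detected on control array 6 only (detection p-value 0.0289). A probe at background does not show that the transcript was missing, and no difference between groups is given for these 4 genes.

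**Figure D2:**
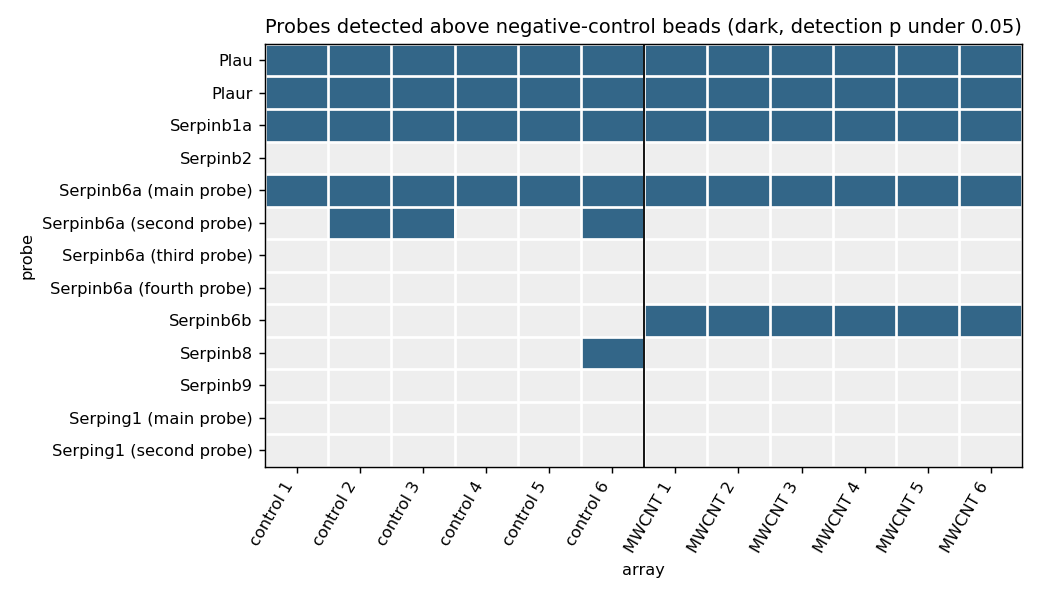
Detection of the 13 probes (rows) on the 12 arrays (columns, 6 control left of the line and 6 MWCNT right of it). Dark cells have a detection p-value under 0.05, and the Serpinb6b row is dark on the 6 MWCNT arrays and on no control array, whereas 4 probes are dark on all 12.

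Of the 9 genes 5 passed the detection filter, which asks for detection on at least 3 of 12 arrays. In the limma test across all features, 1 of these 5, Serpinb6b, passed an adjusted p of 0.05, beside 12.8% of the 10143 named genes tested (7.48% higher and 5.3% lower) and 12.9% of all 13210 features, and nothing is read from that count because the genes were picked with the contrast known. The same holds for probes, where Serpinb6b and the second Serpinb6a probe passed, beside 11.5% of 19291 probes. Serpinb6b was also the only 1 of the 5 without overlap between the groups, beside 4.41% of named genes with all MWCNT arrays above all controls and 2.59% with all of them below. Just inside the detection filter lay the second Serpinb6a probe with 3 arrays, and just outside it Serpinb8 with 1 array. The median difference over the 5 genes was 0.23, and over all 13210 features it was -0.02.

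**Figure D3:**
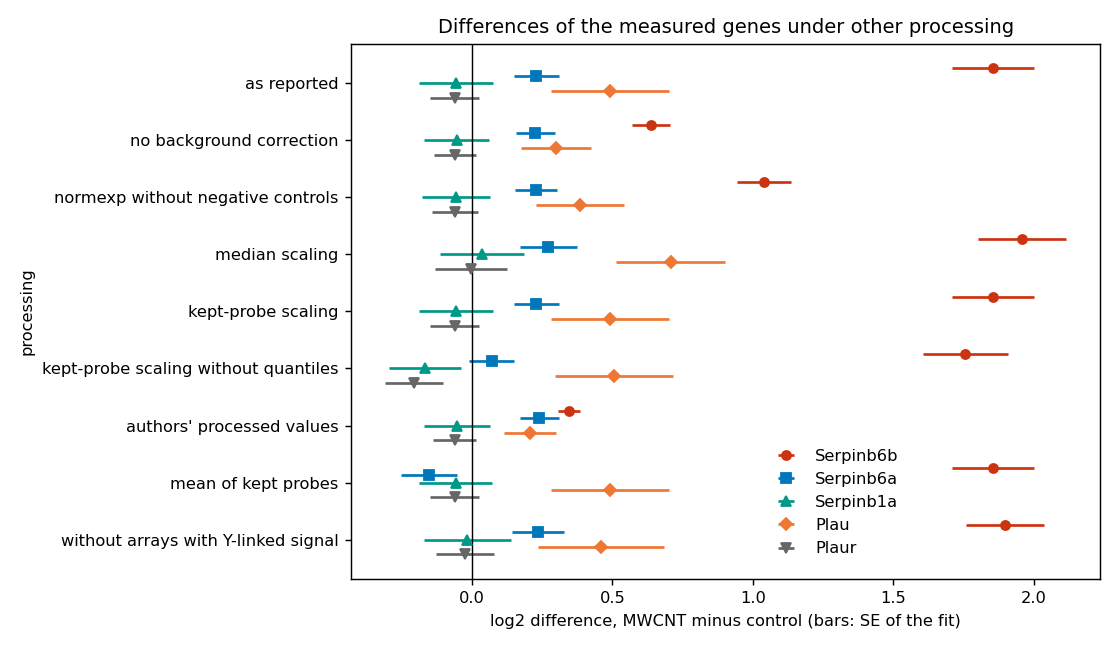
Log2 difference, MWCNT minus control (horizontal axis, bars are the SE of the fit), of the 5 measured genes under the processing reported and 8 others (rows). Serpinb6b stays above 0 in all 9 rows, from 0.35 in the authors' processed values to 1.96 with median scaling, while Serpinb6a, Serpinb1a and Plaur lie between -0.21 and 0.27 throughout.

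Markers of other cell types moved on the same arrays as Serpinb6b, and their counts stand beside 7.48% of named genes called higher, 5.3% called lower and 4.41% with all MWCNT arrays above all controls. Of 15 T and NK cell markers on the array 11 were tested, of which 7 were higher and 1 lower with MWCNT. Their summed normalized intensity was 7941 to 9534 in controls and 8413 to 12017 with MWCNT, and the sums overlapped. They include Cd2, whose level was 12.84 ± 0.11 in controls and 12.67 ± 0.06 with MWCNT. The T cell receptor complex genes Cd3e, Cd3g and Cd3d were each detected on all 6 MWCNT arrays, and on 1, 5 and 5 control arrays. Their fitted rises were 5.62-fold, 6.62-fold and 6.42-fold (adjusted p = 7.29e-05, 0.00026 and 8.63e-05 in limma's test). The Cd3e fold rests on controls that were mostly not detected. These 3 genes did not overlap between the groups. Neither did Thy1, Il7r, Icos and Nkg7, which were also higher, while Cd4, Cd5, Cd8a and Ncr1 were detected on no array. The 1 called lower was Prf1, detected on all 6 arrays of each group. Its level was 9.93 ± 0.53 in controls and 9.17 ± 0.23 with MWCNT, with overlap (adjusted p = 0.0294 in limma's test). Cd2, Klrb1c and Cd28 were not called. Of 8 monocyte-derived macrophage markers, all tested, 7 were higher and none lower, and the sums did not overlap (14799 to 17089 and 24686 to 34735). All these sums add linear values, so the brightest marker of a list weighs most. Here that was Gpnmb, with a log2 level of 13.62 ± 0.09 in controls and 14.56 ± 0.16 with MWCNT. Of 8 dendritic cell markers 5 were tested and 5 were higher (sums 1073 to 1229 and 1778 to 3563), with Flt3 and Xcr1 detected on no array. Of 10 neutrophil markers 6 were tested and 3 were higher (sums 2617 to 4154 and 4398 to 8125), while Camp, Mmp8, Mpo and Ngp were detected on no array. Of 5 B cell markers 3 were tested and 2 were higher (sums 749.5 to 942.3 and 966.9 to 1819), with Pax5 detected on no array. The brightest of them, Cd22, was not called (9.61 ± 0.13 in controls and 9.66 ± 0.13 with MWCNT). Of 5 mast cell markers 2 were tested and 1 was higher (sums 155 to 219.9 and 242.1 to 439.8), and Cpa3, Mcpt4 and Tpsb2 were detected on no array. Of 7 lung epithelial markers 5 were tested and 2 were higher (sums 5465 to 16554 and 11649 to 30860), with Epcam detected on no array. No eosinophil or mesothelial marker was tested. The markers Nkg7, Cd79b, Blk, S100a9, Ccr2, Ccl22 and Zbtb46, all counted as higher, were detected on no control array, and Cd3e on 1. These markers passed the detection filter only through MWCNT arrays. Nothing further is read from their p-values, their lack of overlap or their part of these counts.

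MWCNT array 5, a low array for Serpinb6b, had the lowest MWCNT sum for T and NK cell, monocyte-derived macrophage, dendritic cell, neutrophil and mast cell markers, but array 1, the other low array, had the highest sum for monocyte-derived macrophage, neutrophil and B cell markers. Of 11 markers of resident alveolar macrophages 9 were tested, 2 higher and 2 lower, with sums of 89190 to 93333 in controls and 81019 to 88229 with MWCNT, and Fabp1 and Fabp4 were detected on no array. The part of these cell types in the Serpinb6b difference was not tested, and in RNA from a mixed population more cells of a type and more RNA per cell cannot be told apart. At least 2 of the Y-linked genes Ddx3y, Eif2s3y and Kdm5d were detected on MWCNT arrays 5 and 6, and no other array reached that number. The labels used here do not explain this, and without both arrays the Serpinb6b difference was 1.90 ± 0.14.

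Deviations from the group means were compared across the 12 arrays as a description of which genes varied with Serpinb6b. The closest named genes were Enox2 (Pearson r = 0.89), Spg20 (0.85), Arg2, the mitochondrial arginase (0.84), and Acsl3, which activates long-chain fatty acids (0.83). Leaving out the 2 arrays farthest from the median, MWCNT arrays 1 and 5, these fell to 0.61 to 0.70 over 10 arrays. The control values of Serpinb6b lay at background, and these genes were picked as the highest among 10143, so the size of r is in part set by that choice. Arg2 was higher with MWCNT (0.60 ± 0.14, adjusted p = 0.0137 in limma's test) and so was Acsl3 (0.44 ± 0.13, adjusted p = 0.0332), whereas Enox2 differed by -0.06 ± 0.11 (adjusted p = 0.772) and Spg20 by -0.21 ± 0.10 (adjusted p = 0.183). For Plaur the closest were Hlx (0.91), Irx3 (0.86), Mettl1 (0.85) and Ier3 (0.85), which fell to 0.70 to 0.82 without control array 3 and MWCNT array 4. No gene was named for Serpinb2, which lay at background.

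Among the other serpins on the array, most gave no signal in these cells. Of 49 further serpin genes, 42 were detected on no array and 6 passed the detection filter. With the 7 serpins above, 56 serpin genes had a probe, 45 of them were detected on no array and 4 on all 12. RefSeq lists 16 genes of the B clade in the run on chromosome 13, of which 15 had a probe and 3 were measured. These 3 were Serpinb1a, at one end of the run, Serpinb6b, and Serpinb6a, at the other end. Serpinb1c and Serpinb9, on the 2 sides of Serpinb6b, were detected on no array. The run on chromosome 1 has 12 genes, 11 with a probe, and the 2 measured were Serpinb12 and Serpinb3c. Serpinb2 and Serpinb8 lie in that run.

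Of the 6 further serpins tested, 1 was higher with MWCNT, none was lower and 5 were not called, beside 12.8% of named genes called in either direction, and their median difference was -0.04 (0.17 with median scaling). The one was Serpina3f, a member of the antichymotrypsin-like group that is expanded in mice. Its levels were 4.48 to 4.73 in controls and 4.79 to 6.26 with MWCNT, without overlap but close together, since MWCNT arrays 3 and 5 lay at 4.80 and 4.79. It was detected on no control array and on 3 MWCNT arrays (fitted difference 0.81 ± 0.21, adjusted p = 0.0206 in limma's test), and its mean with MWCNT was too low for a bound above 1. Since Serpina3f passed the detection filter only through those 3 arrays, nothing further is read from this p-value or from the count of 1 higher. Serpinb12 differed by -0.07 ± 0.12 (adjusted p = 0.739) and Serpinf1, a serpin without inhibitory activity, by -0.02 ± 0.12 (adjusted p = 0.954), and both signs turned positive with median scaling (0.15 and 0.18). A second Serpinf1 probe was detected on no array.

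Of 33 genes of plasminogen activation and fibrin turnover on the array 19 were tested, of which 4 were higher with MWCNT, 1 was lower and 14 were not called, 5 of 19 beside 12.8% of named genes. Their median difference was 0.00 (0.19 with median scaling). With scaling to the detected probes in place of quantiles, which moved the median of all features to -0.10, 4 were higher and 6 lower. Plat, the tissue-type activator, Plg, the source of plasmin, and the plasmin inhibitor Serpinf2 were detected on no array.

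Igf2r, the mannose 6-phosphate receptor, which also binds plasminogen and the urokinase receptor, had levels of 5.99 to 6.47 in controls and 6.83 to 8.35 with MWCNT. The groups did not overlap, and MWCNT array 5 was the lowest of its group. It rose 3.19-fold (log2 difference 1.67 ± 0.22, limma adjusted p = 0.000253), and its second probe was detected on all 6 MWCNT arrays and on no control array. St14, which encodes matriptase, a membrane protease that can activate pro-urokinase, and F13a1, the fibrin cross-linking factor XIII subunit, were each detected on no control array and on 5 MWCNT arrays. They were at least 1.43-fold and 1.26-fold higher (adjusted p = 0.00105 and 0.00024). Both passed the detection filter only through MWCNT arrays, so nothing further is read from these p-values or from their share of the count. A second St14 probe was detected on no control array and on 2 MWCNT arrays, which left it outside the filter. A further St14 probe was detected on no array.

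Lrp1, the endocytic receptor that clears complexes of serpins with their proteases, had levels of 9.09 to 9.41 in controls and 9.32 to 9.62 with MWCNT, which overlapped. It rose by 0.25 ± 0.08 (adjusted p = 0.0442), a call lost with a replicate block (0.0524), with array weights (0.0620), with scaling to the detected probes in place of quantiles (0.0890), with every probe a feature (0.0542) and without both arrays with Y-linked signal (0.159). Leaving out a single array also ended it in 9 of 12 cases, with adjusted p from 0.0581 to 0.0913. The exceptions were control array 5 and MWCNT arrays 1 and 2. Hgf, a growth factor that serine proteases activate, had levels of 8.37 to 8.73 in controls and 7.59 to 8.21 with MWCNT, without overlap. The fall was 0.49 ± 0.11 (a log2 difference of -0.49, adjusted p = 0.0106), and median scaling ended that call (-0.30, adjusted p = 0.120). A second, dimmer Hgf probe, detected on 2 control and 2 MWCNT arrays, was not called. It differed by -0.28 ± 0.13 (limma adjusted p = 0.191 with every probe a feature), and a further Hgf probe was detected on no array. Anxa2, a plasminogen and tissue-type activator binding protein, differed by -0.01 ± 0.06 (adjusted p = 0.915) and by -0.31 (adjusted p = 0.0111) with scaling to the detected probes in place of quantiles. A second, dimmer Anxa2 probe, detected on all 6 arrays of each group, differed by -0.47 ± 0.26. It was not called (limma adjusted p = 0.266 with every probe a feature). Fpr2, a formyl peptide receptor, differed by -0.30 ± 0.10 (adjusted p = 0.0553). It passed under 8 other settings, with adjusted p from 0.00214 to 0.0466, and also without MWCNT array 5 alone (0.0370) or MWCNT array 6 alone (0.0346). The MWCNT levels of Fpr2 (13.70 to 14.23) lay just below those of the controls (14.24 to 14.36).

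Proteases that these inhibitors act on, listed together with granzymes such as Gzmk and Gzmm, were mostly not seen. Gzma was listed too but matched no probe, so no level is given for it, and no target of Serpinb6b is named here. Of 21 listed on the array 6 were tested. None was higher, 1 was lower and 5 were not called, 1 of 6 beside 12.8% of named genes, with a median of -0.12. Elane, Ctsg and Prtn3, the neutrophil granule proteases that Serpinb1a blocks, Gzmb, which Serpinb9 blocks, and C1ra, C1rb and C1s1, which Serping1 blocks, were detected on no array. F2, which encodes prothrombin, was called lower (log2 difference -0.44 ± 0.12, adjusted p = 0.0263), with detection on 4 control arrays and 1 MWCNT array. Since F2 passed the detection filter only through control arrays, nothing further is read from this p-value or from the count of 1 lower. The F2 call ended without control array 4, without MWCNT array 1 or without MWCNT array 2 (adjusted p = 0.0599, 0.0579 and 0.0545), and likewise without background correction, with median scaling, in the authors' processed values and without the arrays with Y-linked signal (0.0686 to 0.120). Furin, the convertase that human SERPINB8 inhibits, differed by 0.01 ± 0.08 (adjusted p = 0.948), and Casp1, the inflammasome protease, by -0.01 ± 0.07 (adjusted p = 0.962). Both signs turned with median scaling, where the differences were -7.3e-05 and 0.03.

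**Figure D4:**
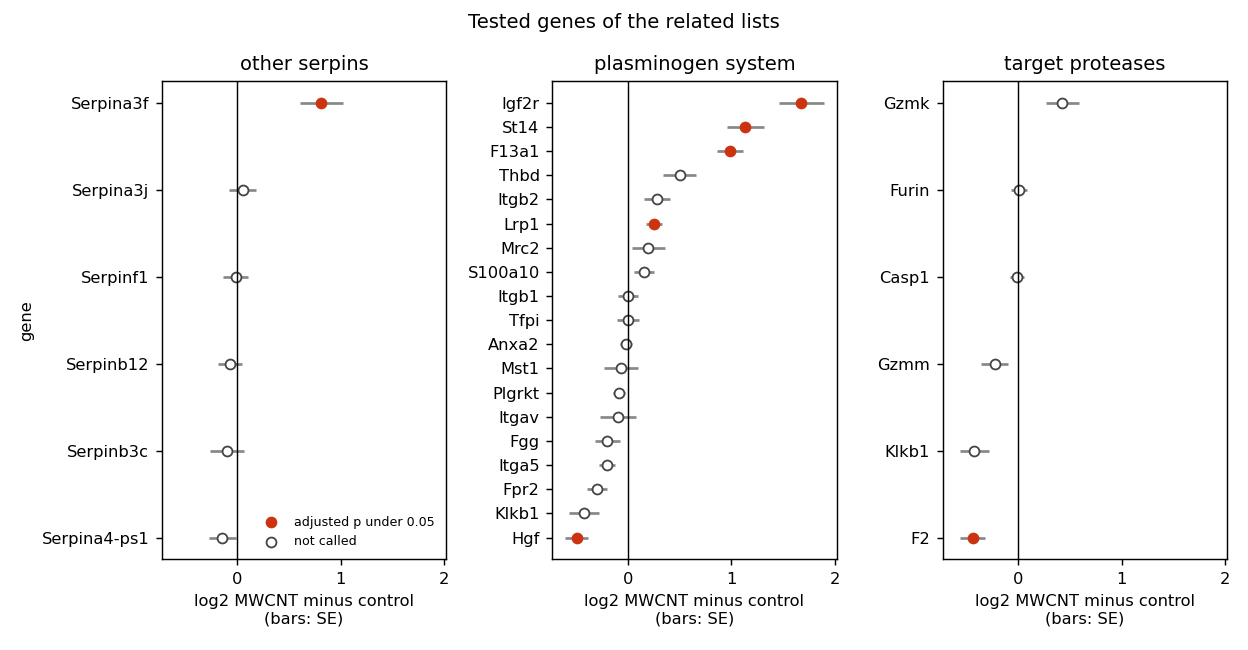
Log2 difference, MWCNT minus control (horizontal axes, bars are the SE of the fit), of the tested genes of each list (rows): 6 further serpins, 19 plasminogen system genes and 6 proteases. Filled points passed an adjusted p of 0.05, and the largest difference shown is Igf2r at 1.67.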

How the data were processed

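Per the file headers, the deposited scanner table gives an intensity and a detection p-value for each probe on each of the 12 arrays, and by its values no background or array normalization had been applied. The authors' processed intensity values, for which the submitters' processing notes name lumi, served as an alternative. They are linear and quantile normalized, and the origin of their offset stays unknown. Of 45281 probes, 34885 had 1 symbol in the platform annotation, 18 several and 10378 none.

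Background was removed with limma's neqc (limma 3.58.1, statmod 1.5.0, R 4.3.3; offset 16, negative controls estimated through the detection p-values), followed by quantile normalization and log2. Probes detected on at least 3 of 12 arrays were kept, and the brightest kept probe stood for its gene. The resulting 13210 features were fitted with lmFit and eBayes without covariates, and two-sided p-values were adjusted by Benjamini-Hochberg over all of them, a step checked on simulated data. Between 38.0% and 40.5% of probes were detected per array, replicates correlated at 0.980 or more, and the number of arrays limits the precision. Figures used Python 3.11.15, SciPy 1.17.1 and matplotlib 3.10.9.

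The members and lists were chosen with earlier results of these data known. The text names all members, up to 6 called and the 2 brightest uncalled genes of each list, and the 4 genes most like Serpinb6b and Plaur. Arrays with the same replicate number correlated at -0.18 to 0.15 in their deviations and 3 of 6 matched best with their own number, so the numbers were not taken as pairs. Alternatives changed the background, scaling, filter, probe rule, variance model, array weights, replicate block and arrays used. Scaling to the kept (detected) probes in place of quantiles was added after seeing the data, and no slide block was run because no slide is given.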

Additional observations from a re-analysis of the deposited data

Results flagged for a closer look

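Among 38 groups of 6 arrays checked for an array far from the others, 3 had one, where chance gives about 1 in 20. Plaur was highest on MWCNT array 4 at 11.72, with the next array at 11.49. F13a1 was lowest on MWCNT array 5 at 5.19, next to 5.73, and Hgf was lowest on MWCNT array 4 at 7.59, next to 8.03.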

How the results depend on the processing

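The Serpinb6b difference kept its sign under every setting that could give it, and its size moved from 1.86 to 0.64 without background correction, 1.04 with normexp and 0.35 in the authors' processed values. It could not be fitted over probes detected on all 12 arrays. Members past the threshold numbered 1, and 2 without background correction, with median scaling, in the authors' values, with every probe a feature and with trend and robust variances, 0 with probes detected on all arrays, and 1 to 2 without single arrays (2 without MWCNT array 2). Features changed numbered 1700 (922 higher, 778 lower, 54.2% higher), 2670 (809 and 1861, 30.3%) with scaling to the kept probes without quantiles, 1902 (1688 and 214, 88.7%) with median scaling, 1111 with probes detected on all arrays, and 1372 to 1684 without single arrays. The median difference of all features was -0.02, 0.10 with median scaling and -0.10 with kept-probe scaling without quantiles. Further serpins changed numbered 1, or 0 with probes detected on all arrays. Plasminogen system genes changed numbered 5, 10 with kept-probe scaling without quantiles (4 higher, 6 lower), 3 with probes detected on all arrays, and 4 to 6 without single arrays. Proteases changed numbered 1; 0 without background correction, with median scaling, in the authors' values, with probes detected on all arrays and without the arrays with Y-linked signal; 2 with kept-probe scaling without quantiles or with the mean of probes; and 0 to 3 without single arrays (0 without control array 4 or MWCNT array 1 or 2, 3 without MWCNT array 3). With the replicate number as a block 1488 features changed, Serpinb6b differed by 1.86 ± 0.14, and of the called genes named from the serpin, plasminogen and protease lists the block ended the Lrp1 call alone.

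Among members, the sign of Serpinb1a turned with median scaling (0.035) and without control array 4 (0.021). That of Serpinb6a turned with the mean of probes (-0.15), which takes in the second probe, kept only through control arrays. In the lists, signs turned for genes that were not called. With median scaling these were Casp1 (0.029), Furin (-7.3e-05), Serpinb12 (0.15) and Serpinf1 (0.18), and Furin was -0.20 with kept-probe scaling without quantiles and -0.083 with the mean of probes. Without single arrays the ranges were -0.026 to 0.011 for Anxa2, -0.038 to 0.019 for Casp1, -0.038 to 0.043 for Furin, -0.13 to 0.031 for Serpinb12 and -0.086 to 0.082 for Serpinf1. The cause of these changes was not tested, except that fewer features were tested with probes detected on all arrays. Signal near background limits Serpinb2, Serpinb8, Serpinb9 and Serping1.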
